A study of Homo sapiens with 6 samples.

Results

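The tRNA gene cluster at the distal end of the long arm of chromosome 5 was examined in small RNA libraries of HEK293T, a human embryonic kidney cell line. The members were the windows of the tRNA class that began within a 500 kb interval of chromosome 5 (GRCh38), which opens 196.9 kb before the first member and closes 177.8 kb after the start of the last. The nearest tRNA window outside the interval on this chromosome began 46.2 Mb from the first member. This rule, which used no read count, took 19 of the 534 tRNA windows and of 53603 windows in all. The 19 windows ran from position 181096920 to 181222617 and held 17 tRNA genes and the tRNA pseudogene TRL-AAG7-1, by overlap with the RefSeq GRCh38.p14 gene table. One gene, TRT-TGT6-1, lay in 2 windows. Each window was 400 bp long, from 150 bp before to 250 bp after a start site, and each but tRNA_53252, which ends inside its gene, covered the whole of a tRNA gene or the pseudogene together with flanks. The reads of a window could come from precursor, mature tRNA or fragments.

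For 48 h the cells had been transfected with siRNA at 150 nM, either a control siRNA or one that targets La, and 3 libraries were made per arm. Both arms carried a transfected siRNA, and all libraries came from this 1 cell line. RNA ends were treated with Antarctic Phosphatase and then T4 Polynucleotide Kinase before library preparation. The series text calls the replicates biological. The windows read small RNA and not marker mRNAs, so the identity of the cells was not checked. The window at the start of SSB, the gene of La, had 4, 3 and 3 counts with control siRNA (replicates 1 to 3) and 1, 0 and 0 with La siRNA (replicates 1 to 3), which do not measure the mRNA. Library totals ran from 3066299 to 4105806 counts.

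RNA polymerase III transcribes tRNA genes from promoter elements inside the gene, the A box and the B box, and stops in a run of T on the sense strand. The new precursor therefore ends in a run of U, and La binds that end and protects it before the trailer is cut off and CCA is added. tRNA genes occur in many copies, and copies with the same first number in their symbol encode the same mature tRNA. The copies then differ mainly in the leader and trailer, so reads of the mature part cannot be assigned to 1 copy.

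The sequences below show the parts named above, the anticodon in capitals in the gene and each run of at least 4 T in capitals in the 35 bases that follow it. RefSeq start-region sequences (GRCh38.p14) contained 1 gene of the cluster, TRT-TGT6-1 (chr5:181191687-181191758, minus strand), which overlaps the first exon of the lncRNA gene LINC01962 in GENCODE release 29. They also contained copies of TRP-TGG3 on chromosomes 14 and 16 (chr14:20684016-20684087 and chr16:3188094-3188165, plus strand) and of TRL-AAG2 on chromosome 6 (chr6:28943622-28943703, minus strand). Their genes are shown because TRP-TGG3-1 and TRL-AAG2-1 of the cluster share their mature names. Their flanks are their own and do not show those of the cluster's genes.
TRT-TGT6-1 gene: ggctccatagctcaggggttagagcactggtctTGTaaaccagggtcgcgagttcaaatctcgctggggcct
TRT-TGT6-1 flank: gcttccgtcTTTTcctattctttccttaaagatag
TRP-TGG3-2 gene: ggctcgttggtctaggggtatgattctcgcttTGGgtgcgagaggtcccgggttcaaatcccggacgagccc
TRP-TGG3-2 flank: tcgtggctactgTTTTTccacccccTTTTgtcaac
TRP-TGG3-5 gene: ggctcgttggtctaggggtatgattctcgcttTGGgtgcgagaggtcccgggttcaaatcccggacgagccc
TRP-TGG3-5 flank: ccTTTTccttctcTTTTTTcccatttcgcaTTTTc
TRL-AAG2-2 gene: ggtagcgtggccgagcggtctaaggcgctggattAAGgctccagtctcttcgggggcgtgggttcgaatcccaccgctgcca
TRL-AAG2-2 flank: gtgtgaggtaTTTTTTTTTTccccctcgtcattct

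TRP-TGG3-2 and TRP-TGG3-5 were identical at 72 of 72 bases, while their flanks differed from the first base. The other TRP-TGG3 genes, among them TRP-TGG3-1 of the cluster, were not compared. The first T run began at base 10 after TRT-TGT6-1 with 4 T, at base 13 after TRP-TGG3-2 with 5 T, at base 3 after TRP-TGG3-5 with 4 T and at base 11 after TRL-AAG2-2 with 10 T. Of 35116 RefSeq start regions, 14.04% held TTTT in their first 35 bases on the given strand. The motif GTTCNANNC, a short form of the B box, was found on the sense strand of all 4 genes. Searched on both strands, it was found in 7.48% of the 300 bp start regions, which are longer than the genes. The motif matches describe the letters and were not tested as sites.

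In the cluster, 1 of 18 tested windows fell in the La knockdown libraries and none rose (edgeR quasi-likelihood test with p-values adjusted by Benjamini-Hochberg, threshold 0.05, 3 libraries per arm). The window that fell was that of the proline tRNA gene TRP-TGG3-1, by 2.82-fold. Over all 1064 windows tested, 4.79% were called lower and 0.658% higher. Over tRNA windows elsewhere 30 of 428 were called lower, which is 7.01%. At an unadjusted p under 0.05 the cluster still had 1 lower and 0 higher windows, beside 151 lower and 103 higher of the 1064 windows tested. Of the 428 tRNA windows elsewhere, 116 were lower and 3 higher at that threshold. DESeq2 called 1 lower and 0 higher in the cluster, 76 lower and 23 higher of the 1064, and 52 lower and 1 higher of the 428. All 18 had a fitted log2 fold change below 0, against 53.2% of all windows tested and 351 of the 428 tRNA windows elsewhere. With library size alone all 18 stayed below 0, while 4 of the 18 were above 0 with RLE factors and 13 of 18 with upper quartile factors. Over all 1064 windows the median log2 fold change shifted by 0.06 with RLE and 0.32 with upper quartile factors, and relative to that median the cluster's median was -0.13 with TMM, -0.12 with RLE and -0.13 with upper quartile factors. The median over the 18 windows was -0.18, beside -0.43 over tRNA windows elsewhere and -0.05 over all windows. The median of the 17 windows other than TRP-TGG3-1 was -0.18.

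**Figure D1:**
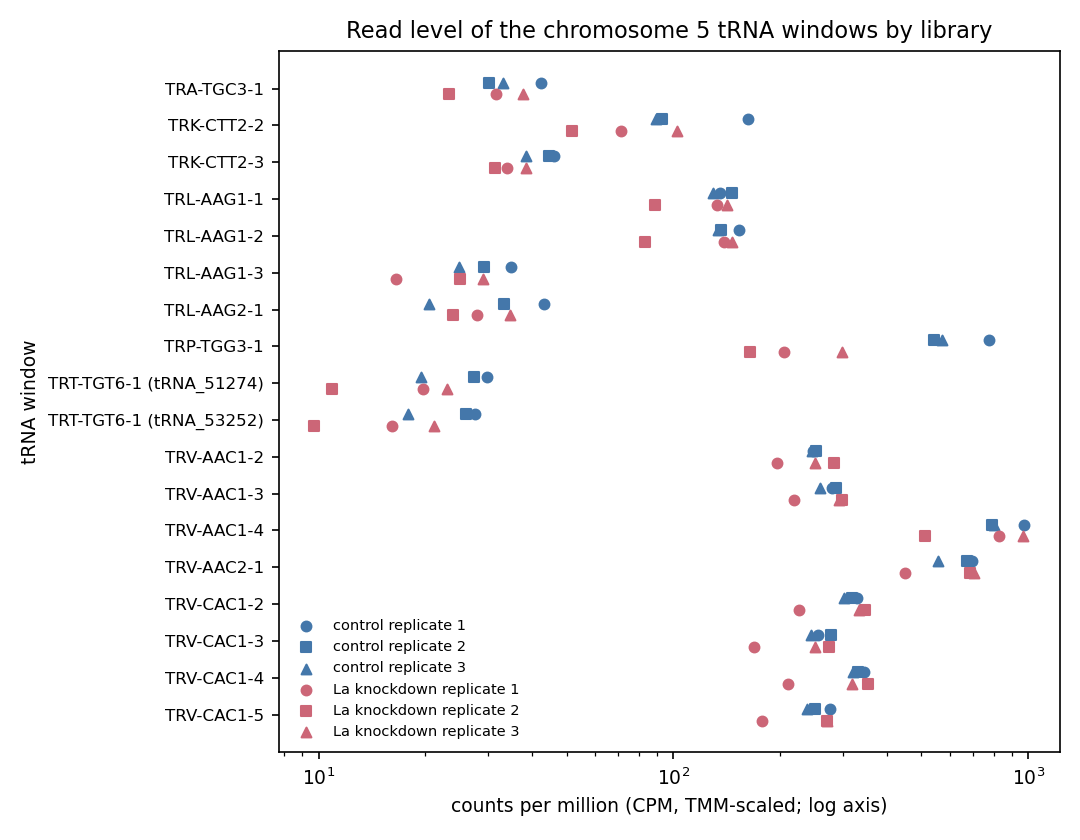
Each point is 1 library, placed by its CPM, the counts scaled to library size with TMM factors (log axis), with control libraries in blue and La knockdown libraries in red for the 18 tested windows. TRP-TGG3-1 is the window whose arms lie apart, with control libraries from 542 to 773 and La knockdown libraries from 164 to 299.

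TRP-TGG3-1 encodes a proline tRNA whose anticodon pairs with the CCA codon. Its window tRNA_52062 (positions 181188694 to 181189093, gene at 181188854 to 181188925) had 2961, 1833 and 2205 counts with control siRNA (replicates 1 to 3) and 570, 558 and 950 with La siRNA (replicates 1 to 3). Each La knockdown library lay below each control library. On the CPM scale it went from 629 ± 126 to 223 ± 69.3 (SD, n = 3), which gave a log2 fold change of -1.50 ± 0.29 (SE) and an edgeR adjusted p of 0.0156. It was the 1 window of the 18 tested in which each La knockdown library lay below each control library after scaling. This held for 17.9% of all windows tested and for 153 of the 428 tested tRNA windows elsewhere. In bulk libraries, fewer cells and less RNA per cell cannot be told apart. Without La knockdown replicate 1 the log2 fold change was -1.46 with an edgeR adjusted p of 0.151, so the call was lost. That fit called 0 of 1121 windows in all (at an unadjusted p under 0.05 it had 103 windows lower and 72 higher), so each other edgeR call named here was lost in it too. In the other fits, which used other scalings, filters, the replicate block, DESeq2 or left out another library, the adjusted p ran up to 0.0406, with log2 fold changes from -1.84 to -1.17. In the authors' deposited table its log2 fold change was -1.73, with an adjusted p of 4.18e-05, and it was the 1 window of the cluster with an adjusted p under 0.05. The authors' log2 fold changes were lower in general, with a median difference of -0.27 from those given here over all windows tested here. The authors' table called 0.149% of all 53603 windows lower, and only 1064 of the 53603 passed the filter used here. Of its 534 tRNA windows, 54 had an adjusted p under 0.05.

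The nearest neighbour of TRP-TGG3-1, the valine gene TRV-AAC2-1, has a window that begins 455 bp away and was not called (log2 fold change -0.06 ± 0.25, SE). Its window tRNA_52489 (positions 181188239 to 181188638) had 2653, 2277 and 2148 counts with control siRNA and 1254, 2328 and 2232 with La siRNA, with overlapping arms. The count of TRP-TGG3-1 divided by that of TRV-AAC2-1 in the same library was 1.12, 0.805 and 1.03 in the control arm and 0.455, 0.240 and 0.426 in the La knockdown arm. This ratio needs no scaling between libraries, and its arms did not overlap (exact permutation test, two-sided p = 0.1, the smallest that 3 against 3 libraries allow, and 0.15 adjusted over 3 ratios chosen after the values were seen).

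**Figure D2:**
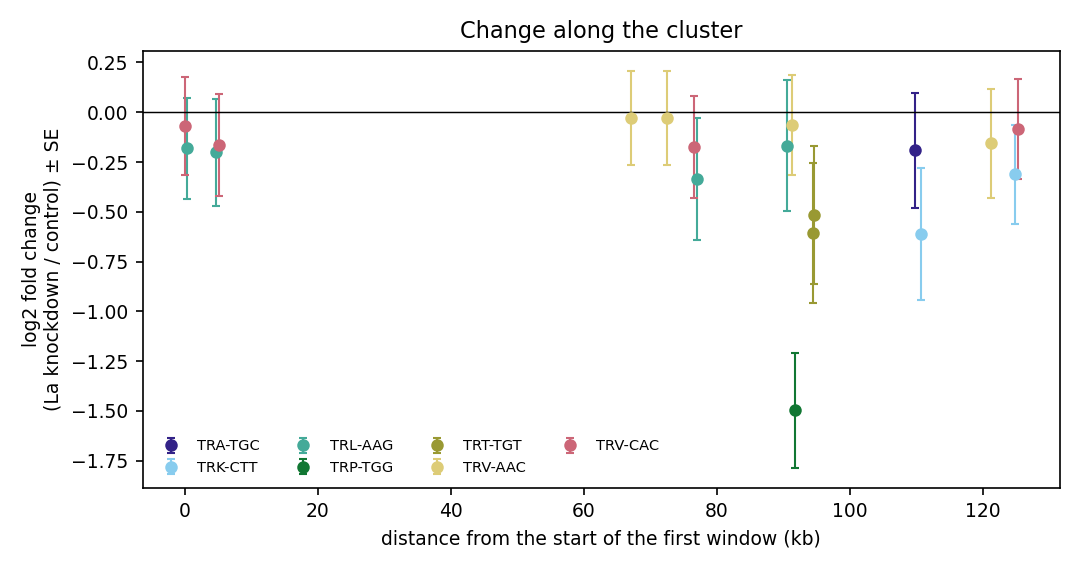
Points give the log2 fold change (La knockdown over control, edgeR) with its SE as the error bar against the distance in kb from the start of the first window, coloured by anticodon. TRP-TGG3-1 at -1.50 stands below its neighbours on both sides, and the other 17 windows lie between -0.61 and -0.03.

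The 5 gene copies named TRP-TGG3 have the same mature name but not the same values. TRP-TGG3-3 on chromosome 16 was also called lower, with 296 ± 53.0 CPM in the control arm and 113 ± 19.1 CPM in the La knockdown arm (SD, n = 3), which gave a log2 fold change of -1.39 with an edgeR adjusted p of 0.0156. TRP-TGG3-2 on chromosome 14 had -0.74 (adjusted p = 0.186), TRP-TGG3-4 had -0.38 (adjusted p = 0.298) and TRP-TGG3-5 had -0.52 (adjusted p = 0.221). All 5 had arms that did not overlap after scaling, each with the La knockdown libraries below. The same held for 153 of the 428 tested tRNA windows outside the cluster and 17.9% of all windows tested. The ratio of TRP-TGG3-1 to TRP-TGG3-2 counts was 1.13, 1.05 and 1.13 with control siRNA (replicates 1 to 3) and 0.592, 0.796 and 0.630 with La siRNA (replicates 1 to 3), again without overlap (exact permutation p = 0.1, adjusted 0.15). Reads of the shared mature sequence cannot tell these genes apart, so the value of a single copy is uncertain.

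**Figure D3:**
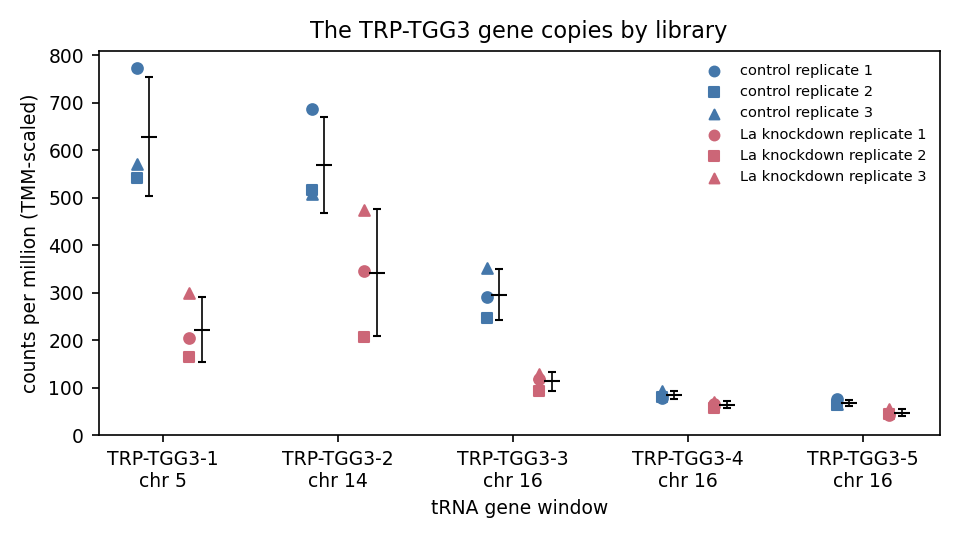
TMM-scaled CPM of the 5 TRP-TGG3 gene windows in each library, with the mean and SD of each arm in black (n = 3). The La knockdown libraries lie below the control libraries in each window, with fitted log2 fold changes from -1.50 for TRP-TGG3-1 to -0.38 for TRP-TGG3-4.

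Of the 6 tested windows of TRP-TGG genes elsewhere, 3 were called lower and 0 higher, with a median of -0.98. Besides TRP-TGG3-3 these were TRP-TGG1-1 at -1.40 and TRP-TGG2-1 at -1.21 (edgeR adjusted p = 0.0148 and 0.0304). At an unadjusted p under 0.05, 4 of the 6 were lower and 0 higher, and DESeq2 called 3 lower and 0 higher.

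The valine genes made up 8 of the 18 tested windows and held most of the cluster's reads. TRV-CAC genes, whose anticodon reads the GUG codon, had 26.6% ± 1.47 of the cluster's counts with control siRNA and 29.2% ± 5.43 with La siRNA (SD, n = 3). TRV-AAC genes, whose first anticodon base becomes inosine in the mature tRNA, had 46.0% ± 0.703 and 51.9% ± 1.56. The share of TRP-TGG3-1 went from 14.2% ± 1.66 to 6.04% ± 1.24. The TRV-AAC shares, from 45.3% to 46.7% with control siRNA and from 50.3% to 53.4% with La siRNA, did not overlap. The shares sum to the whole, so they are not independent of each other. A lower share of TRP-TGG3-1 raises the shares of the other genes. The higher TRV-AAC shares are therefore no rise of the TRV-AAC windows, whose log2 fold changes ran from -0.16 to -0.03.

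None of the 8 valine windows was called (edgeR; 0 at an unadjusted p under 0.05 and 0 with DESeq2), and their log2 fold changes ran from -0.18 to -0.03. TRV-CAC1-4 (tRNA_53250, positions 181173500 to 181173899) had 1319, 1124 and 1238 counts with control siRNA and 587, 1203 and 1010 with La siRNA, which gave a log2 fold change of -0.18 ± 0.26 (SE) and an edgeR adjusted p of 0.650. Replicate 1 of the knockdown was low, and the arms overlapped before and after scaling. TRV-CAC1-2 (tRNA_53243, positions 181096920 to 181097319) had 1261, 1080 and 1169 counts with control siRNA and 631, 1174 and 1059 with La siRNA, which gave a log2 fold change of -0.07 ± 0.25 (SE). TRV-AAC1-2 (tRNA_53247, positions 181164004 to 181164403) had 947, 854 and 950 counts with control siRNA and 548, 963 and 798 with La siRNA, which gave a log2 fold change of -0.03 ± 0.24 (SE), the one nearest to 0. The window of TRV-CAC1-5 also covers 52 bp of the miRNA gene MIR4638.

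TRV-AAC1-4 (tRNA_53255, positions 181218093 to 181218492) had the most reads of the cluster, with 3733, 2668 and 3097 counts with control siRNA and 2303, 1733 and 3073 with La siRNA. Its log2 fold change was -0.16 (SE 0.27, edgeR adjusted p = 0.707), and its arms overlapped. The other 4 TRV-AAC1 copies, of which TRV-AAC1-2 and TRV-AAC1-3 lie in the cluster, differed among themselves within a library by 1.17 to 1.40 times from the lowest to the highest. With TRV-AAC1-4 the range was 2.10 to 5.27 times. Against TRV-AAC1-2 in the same library TRV-AAC1-4 had 3.94, 3.12 and 3.26 times the counts in the control arm and 4.20, 1.80 and 3.85 times in the La knockdown arm, which overlapped (exact permutation p = 0.9, adjusted 0.9). The 7 named TRV-CAC1 copies, 4 of them in the cluster, were as even, with the highest copy at 1.31 to 1.35 times the lowest in every library. How reads with several positions were placed was not given in the sources used here.

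The low library of the knockdown arm differed between windows. In 7 of the 8 valine windows, all but TRV-AAC1-4, La knockdown replicate 1 was the lowest of its arm after scaling, between -0.66 and -0.33 on the log2 scale against the control mean. In those 7 windows La knockdown replicate 2 lay between 0.08 and 0.19 and replicate 3 between -0.06 and 0.14. In 10 of the other 11 tested windows replicate 2 was the lowest of its arm instead, and the exception was TRL-AAG1-3. This split was noticed after the values were seen and has no test. Apart from TRV-AAC2-1, the 7 valine windows are those of TRV-CAC1 or TRV-AAC1 copies, which can share reads and are not separate observations. The TRV-CAC1 and TRV-AAC1 copies outside the cluster also had La knockdown replicate 1 as the lowest of its arm after scaling. Without La knockdown replicate 1, 5 of the 18 windows had a log2 fold change above 0.

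**Figure D4:**
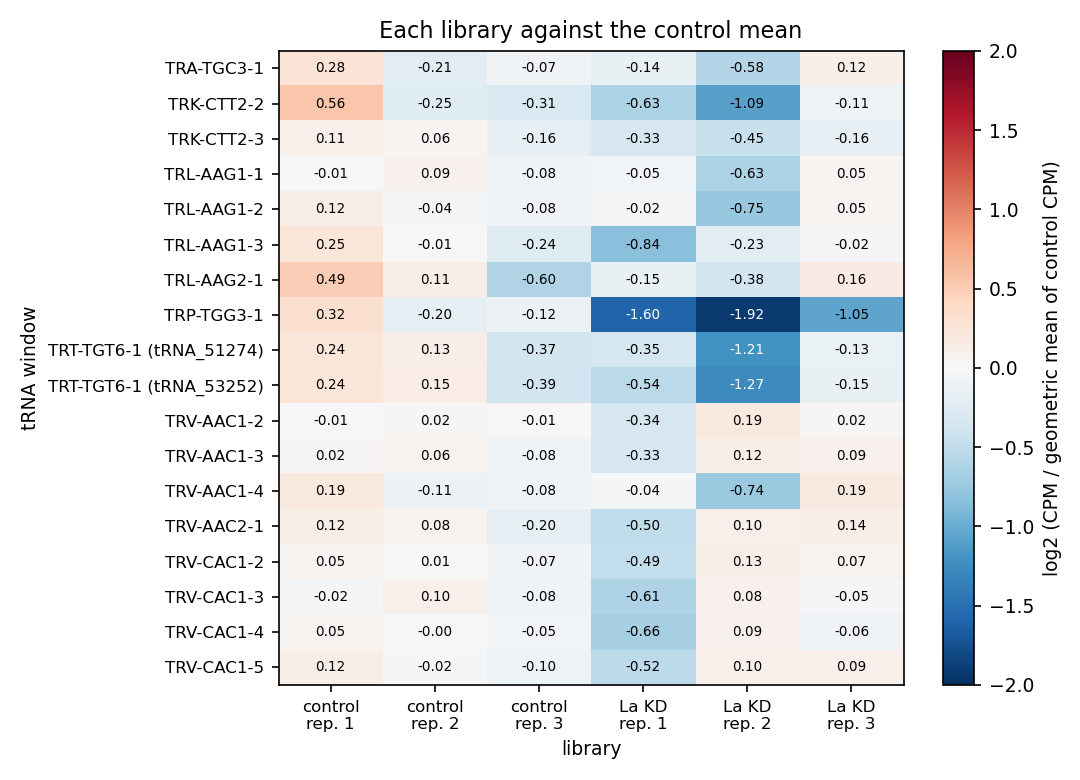
Each cell is the log2 ratio of a library's CPM to the geometric mean of the control CPM of that window, with windows in rows and libraries in columns, where La KD stands for La knockdown. The row of TRP-TGG3-1 is low in each La knockdown library, most valine rows are low in replicate 1, and TRV-AAC1-4 and most other rows are lowest in replicate 2.

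Elsewhere in the genome, 2 of 11 tested TRV-CAC windows and 0 of 6 tested TRV-AAC windows were called lower, and none higher. At an unadjusted p under 0.05 these were 3 and 1, and with DESeq2 also 3 and 1. Both called windows were of TRV-CAC11, a gene with another mature name than those of the cluster, at -2.11 and -2.05 (edgeR adjusted p = 0.0390 each). The TRV-CAC11 control libraries varied widely, with 542 ± 281 CPM for TRV-CAC11-1.

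The leucine genes of the cluster carry the anticodon AAG, which with inosine in its first place reads CUU and related leucine codons. None of their 4 tested windows was called, and the median log2 fold change was -0.19, beside -0.19 over the 4 tested TRL-AAG windows elsewhere, of which 0 were called. At an unadjusted p under 0.05, and with DESeq2, 0 leucine windows were called in either place. TRL-AAG1-3 (tRNA_51490, positions 181173876 to 181174275) had 134, 99 and 96 counts with control siRNA and 46, 85 and 92 with La siRNA, which gave a log2 fold change of -0.33 ± 0.31 (SE) and an edgeR adjusted p of 0.461. TRL-AAG2-1 (tRNA_53251, positions 181187551 to 181187950) had 166, 113 and 79 counts with control siRNA and 78, 81 and 110 with La siRNA, which gave a log2 fold change of -0.17 ± 0.33 (SE) and an edgeR adjusted p of 0.738. Both overlapped between the arms after scaling, although the raw counts of TRL-AAG1-3 were lower in each La knockdown library. TRL-AAG1-1 and TRL-AAG1-2, at 137 ± 8.32 and 141 ± 10.3 CPM in the control arm (SD, n = 3), had higher read levels per window of equal length than TRL-AAG1-3 at 29.7 ± 5.06, although the names give them the same mature tRNA. The pseudogene TRL-AAG7-1 had 1, 0 and 2 counts with control siRNA and 0, 0 and 1 with La siRNA, and was too low to be tested.

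TRT-TGT6-1, the threonine gene printed above, reads ACA codons. Its window tRNA_51274 (positions 181191509 to 181191908) had 114, 93 and 75 counts with control siRNA and 55, 37 and 73 with La siRNA, which gave a log2 fold change of -0.52 ± 0.35 (SE) and an edgeR adjusted p of 0.337. A second window, tRNA_53252, overlaps it by 230 bp, ends inside the gene and had 106, 88 and 69 counts with control siRNA and 45, 33 and 67 with La siRNA, which gave a log2 fold change of -0.61 ± 0.35 (SE) and an edgeR adjusted p of 0.280. These windows share reads and are not separate evidence. Replicate 2 of the knockdown was the lowest library in both windows, and replicate 3 lay within the control range after scaling. Knockdown replicate 1 lay within that range in tRNA_51274 (19.7 CPM, lowest control 19.4 CPM). In tRNA_53252 it lay below the range (16.1 CPM, lowest control 17.9 CPM). Of the 5 TRT-TGT windows elsewhere, 2 were called lower and 0 higher, namely TRT-TGT5-1 at -1.69 and TRT-TGT3-1 at -1.09 (edgeR adjusted p = 0.0148 and 0.0375). At an unadjusted p under 0.05, 4 of the 5 were lower and 0 higher, and DESeq2 called 2 lower and 0 higher. Both windows of TRT-TGT6-1 were uncalled at these settings. Whether the TRT-TGT windows elsewhere differ from TRT-TGT6-1 was not tested.

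The lysine genes TRK-CTT2-2 and TRK-CTT2-3 read AAG codons. TRK-CTT2-2 (tRNA_53254, positions 181207605 to 181208004) had 623, 315 and 345 counts with control siRNA and 199, 176 and 326 with La siRNA, which gave a log2 fold change of -0.61 ± 0.33 (SE) and an edgeR adjusted p of 0.262. Control replicate 1 was above the other libraries, and without it the log2 fold change was -0.28. TRK-CTT2-3 (tRNA_53256, positions 181221802 to 181222201) had 177, 151 and 148 counts with control siRNA and 95, 107 and 122 with La siRNA, which gave a log2 fold change of -0.31 ± 0.25 (SE) and an edgeR adjusted p of 0.406. Its raw counts were lower in each La knockdown library, but after scaling the lowest control and the highest La knockdown library met at 38.4 CPM. None of the 7 tested TRK-CTT windows elsewhere was called by edgeR (1 lower at an unadjusted p under 0.05, 0 with DESeq2), and their median was -0.36. The alanine gene TRA-TGC3-1, which reads GCA codons, had 35.2 ± 6.31 CPM in the control arm and 30.9 ± 7.29 CPM in the La knockdown arm (SD, n = 3), and none of the 7 tested TRA-TGC windows elsewhere was called by edgeR (2 lower at an unadjusted p under 0.05, 0 with DESeq2).

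**Figure D5:**
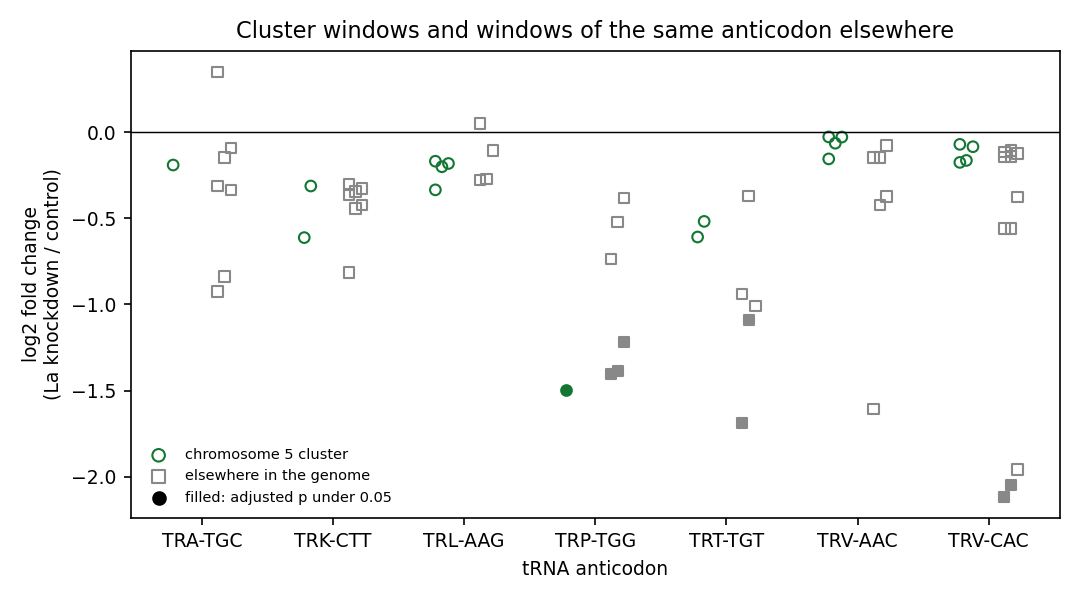
Log2 fold changes (La knockdown over control) of tested windows by anticodon, as green circles for the cluster and grey squares for other places in the genome, filled where the edgeR adjusted p was under 0.05. The filled points are TRP-TGG3-1 in the cluster and, elsewhere, 3 TRP-TGG, 2 TRT-TGT and 2 TRV-CAC windows.

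As a whole the cluster held 0.452%, 0.445% and 0.448% of all counts with control siRNA (replicates 1 to 3) and 0.288%, 0.352% and 0.429% with La siRNA (replicates 1 to 3). Each La knockdown library lay below each control library, by little in replicate 3. These counts include TRP-TGG3-1, which held 14.2% ± 1.66 of the cluster's counts with control siRNA and 6.04% ± 1.24 with La siRNA (SD, n = 3). The separation of the arms is therefore not shown for the other windows of the cluster. Without La knockdown replicate 1 the difference of the means was -0.0583 percentage points, against -0.0923 with all libraries. Of the counts in tRNA windows the cluster held 2.91%, 2.91% and 2.80% with control siRNA and 2.59%, 3.45% and 3.23% with La siRNA, which overlapped. The first share depends on all other RNA in a library, the second on the tRNA windows alone.

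Other genes of RNA polymerase III were read in the same fit. Of the vault RNA windows 2 of 3 tested were called lower, with a class median of -1.86, and of the snAR windows 13 of 17, with a median of -2.18. No window was called in either direction among 22 Y RNA, 46 5S rRNA, 7 7SK, 12 SRP RNA, 9 U6, 1 RNase P RNA and 2 RNase MRP RNA windows, and their medians lay between -0.09 for U6 and 0.56 for 7SK. At an unadjusted p under 0.05 these classes had 0 lower windows, and 9 Y RNA and 2 5S rRNA windows were higher. DESeq2 called 5 Y RNA windows higher and none of the others.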

How the data were processed

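The raw read counts per 400 bp window of 6 libraries were deposited by the authors. Per the submitters' processing notes, Trim Galore, Bowtie2, bedtools and edgeR and the build GRCh38 were used, while versions, counting rule, strand and multi-mapping reads are not given in the sources used here. A second table deposited by the authors holds log2 fold changes and average log2 CPM, an F score and p-values, per the file headers.

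Windows were named by overlap with RefSeq GRCh38.p14 tRNA genes, and all 19 matched. Starts were shifted by 1 to browser positions. Windows kept by filterByExpr (1064) were fitted with edgeR 4.0.16 in R 4.3.3, with TMM factors and the arm as single term, and adjusted by Benjamini-Hochberg over all 1064 at 0.05. SE came from the F statistic. DESeq2 1.42.0 was an alternative. The fit was tested on simulated data. Exact permutation tests used scipy 1.17.1, and figures matplotlib 3.10.9. Replicate libraries differed by more than sampling noise (chi-square per degree of freedom at least 62.1). A gene's strand was taken from its place in the window, since windows run from 150 bp before to 250 bp after a start site.

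Values were given for each called member, the 6 largest changes with a mean of at least 20 counts, the 4 highest counts, and the highest and lowest change of each anticodon with several tested windows. The members and lists were chosen with earlier results of these data known, and the ratios and comparison of gene copies after the values were seen. Scaling, filter, identical windows, replicate block and each library left out were the alternatives. Windows of near-identical genes share reads.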

Additional observations from a re-analysis of the deposited data

How the results depend on the processing

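The 1 lower window of the cluster remained 1, and the higher count 0, under each other scaling (RLE, upper quartile, library size), with DESeq2, without a filter or with one at a mean of 20 counts, with identical windows collapsed and with the replicate block. Over the fits without one library the lower count ran from 0, without La knockdown replicate 1, to 1, and the higher count was 0. Deviations of same-numbered libraries correlated at 0.14, 0.23 and -0.45. With 3 libraries per arm and mixed signs, these values cannot decide whether the numbers pair libraries. With the replicate block TRP-TGG3-1 had an adjusted p of 0.000140 (edgeR) and the median was -0.20. The median of the cluster, -0.18, reversed to 0.14 with upper quartile factors. It was -0.43 without a filter, where 21830 windows were fitted, and from -0.40, without La knockdown replicate 3, to -0.14 when each library was left out in turn. The difference in the cluster's share of all counts ran from -0.129 to -0.0583 percentage points and that in its share of tRNA counts from 0.0382 to 0.469 in those fits. Of 168 alternative values of the 12 windows described in full, 149 kept direction and side of the threshold, 1 was weaker (TRP-TGG3-1 without La knockdown replicate 1) and 18 reversed, none of them past the threshold. With upper quartile factors the reversed log2 fold changes were 0.24 for TRV-CAC1-2, 0.29 for TRV-AAC1-2, 0.14 for TRV-CAC1-4, 0.16 for TRL-AAG2-1, 0.25 for TRV-AAC2-1, 0.17 for TRV-AAC1-4 and 0.0052 for TRK-CTT2-3. For TRV-CAC1-2, TRV-AAC1-2 and TRV-AAC2-1 they were 3.9e-05, 0.043 and 0.0076 with RLE factors and 0.00023, 0.043 and 0.0077 with DESeq2. Over the fits without one library TRV-CAC1-2 ran from -0.22 to 0.073, TRV-AAC1-2 from -0.16 to 0.079, TRV-AAC2-1 from -0.25 to 0.090, TRL-AAG2-1 from -0.41 to 0.097 and TRV-AAC1-4 from -0.42 to 0.053. Beyond fewer libraries or windows and the shift in scaling, the cause was not tested. The tested windows of the cluster had means of 68.0 to 2768 counts, and with 3 libraries an arm their SE was 0.24 to 0.35, so that log2 fold changes as large as -0.61 were not called.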

Other observations

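The same interval of chromosome 5 held 22 windows of other classes, and 19 of them had at most 3 counts in every library. The exceptions were the snoRNA window of SNORD95 and 2 protein-coding windows near the RACK1 gene, which hosts it. The SNORD95 window at positions 181243130 to 181243529 read 1590, 1141 and 1150 counts with control siRNA and 1401, 1385 and 1310 with La siRNA. The mean was 350.2 ± 59.5 CPM with control siRNA and 441 ± 53.1 CPM with La siRNA (SD, n = 3), which gave a log2 fold change of 0.33 ± 0.24 (SE) and an edgeR adjusted p of 0.370. The protein-coding windows had log2 fold changes of 0.43 and 0.22 (edgeR adjusted p = 0.390 and 0.683). None of the 3 was called.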
